A study of Mus musculus with 17 samples.

Results

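The genes of the core circadian clock and its output factors were followed in the livers of 17 mice with 2-color Agilent arrays, each mouse on its own array. The set held 10 genes, Arntl, Clock, Per1, Per2, Per3, Cry1, Nr1d1, Nr1d2, Dbp, and Tef, taken by their symbols in the deposited table of log2 ratios. They were read by 20 of 41174 probes, and all 20 probes passed the filter on dim signals that left 34664 probes for 19358 genes. The mice were male C57BL/6N by the sample labels (the methods name C57BL/6J). The 4 groups were compared after 3 months of diet: chow with a maltose gavage (chow, n = 4), chow with 1 ethanol gavage of 5 g/kg (1B, n = 4), high-fat diet with maltose (HFD, n = 4), and high-fat diet with the same ethanol gavage (HFD+1B, n = 5). Livers were taken 9 hours after the gavage from mice kept in 12 hours of light and 12 hours of dark. The clock time of the gavage is not given in the sources used here, and each liver gives 1 time point, so phase and amplitude of a rhythm cannot be read from these data.

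In the clock of mammalian cells, the proteins of Arntl (BMAL1) and Clock bind E-box sequences and switch on the Per and Cry genes, whose proteins then hold BMAL1 and CLOCK back. A second loop runs through Nr1d1 and Nr1d2, which encode the nuclear receptors REV-ERBα and REV-ERBβ and repress Arntl. Dbp and Tef encode basic leucine zipper factors that bind D-box sequences and pass the rhythm on to enzymes of liver metabolism, and liver is known for the large daily swing of Dbp mRNA.

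In each array Cy5-labeled cDNA of 1 liver was set against the same Cy3-labeled reference RNA. A value below is the log2 ratio of liver to reference after background correction and loess, and a difference is that of 2 group means on this log2 scale, with its SE from limma. The reference cancels in a difference, but levels of different genes cannot be compared. A gene was called where its adjusted p (Benjamini-Hochberg, 34664 probes) did not exceed 0.05, and a gene with several probes was represented by the one brightest in Cy5 unless a probe is numbered. The residual spread rests on 13 degrees of freedom, so the number of arrays limits precision.

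The signal of 73.9% to 86.0% of probes was well above background on each array. The lowest share was on an HFD array and the highest on an HFD+1B array. Every HFD array was dimmer than every chow array, with a median Cy5 signal of 63 to 98 against 99 to 138. Arrays of the ethanol groups overlapped with those of HFD mice (1B 69 to 134, HFD+1B 90 to 158). The part of this dimmer signal in the HFD differences, such as that of Per3, was not tested. All 8 hepatocyte markers tested (of 10 listed) were well above background on all 17 arrays. Their mean log2 ratio was 0.29 to 0.46 in chow mice and was 0.63 to 0.87 in 1B mice. HFD mice had -0.18 to 0.14 and HFD+1B mice 0.41 to 0.76. The 3 ribosomal RNA probes stood apart in HFD livers, where their mean log2 ratio lay between -3.55 and -1.88, against -0.94 to 1.17 over the other groups. In whole liver, fewer cells of a type and less RNA per cell cannot be told apart.

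Dbp and, on its brightest probe, Tef were lower after ethanol on both diets, while the other Tef probes differed, as described below. Of the 10 genes, 3 were called in 1B minus chow, all lower (Dbp, Tef, and Nr1d2), where 4.13% of all genes were called, 2.09% higher and 2.04% lower. In HFD+1B minus chow 4 were called (Dbp, Tef, and Per3 lower, Arntl higher), against 16.3% of all genes, 8.89% higher and 7.41% lower. Dbp and Tef were also called lower in HFD+1B minus HFD, 2 of 10 beside 19.4% of all genes (11.0% higher and 8.39% lower), so the share among the clock genes was near the background there. In HFD minus chow, Arntl was called higher and Per3 lower, 2 of 10 beside 11.0% of all genes (4.50% higher and 6.48% lower). Per1 alone was called, as higher, in HFD+1B minus 1B, beside 11.4% of all genes (6.28% higher and 5.16% lower). None of the 10 was called in the interaction, the ethanol difference on HFD minus that on chow (4.39% of all genes), and 2 of the 10 had an unadjusted p under 0.05 there in limma. Comparisons that share a group, such as chow, are not independent of each other. The median log2 difference of the 10 genes was -0.27 in 1B minus chow and -0.18 in HFD+1B minus chow, where the median of all genes was 0.01 and 0.00.

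**Figure D1:**
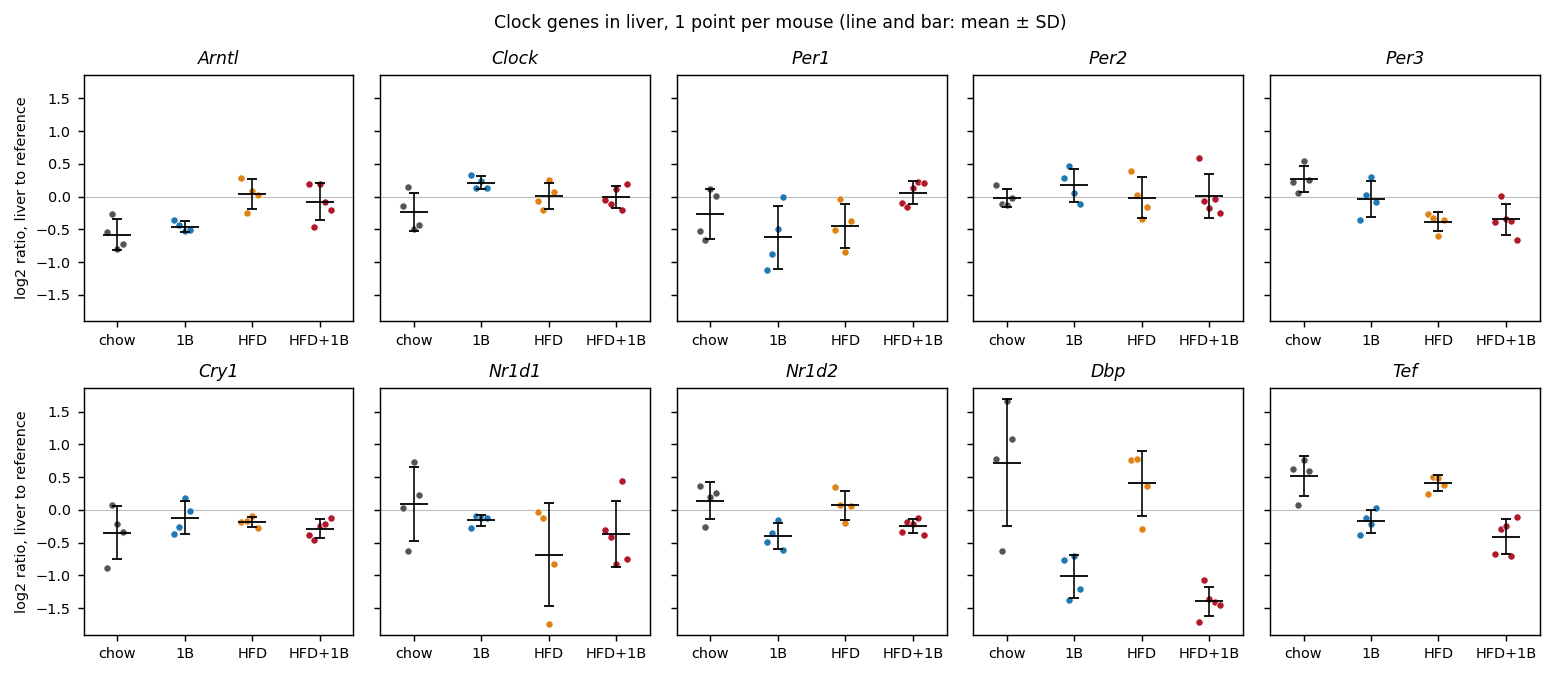
Log2 ratio of liver to reference (vertical axis) of the brightest probe of each clock gene in chow, 1B, HFD, and HFD+1B mice. Points are single mice, and the horizontal line with its bar is the group mean ± SD. Dbp lies at or below -0.71 in every ethanol-treated mouse and at -0.63 or above in every maltose-treated mouse.

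Dbp, the D-box activator, had the largest difference of the 10 genes in 1B minus chow, HFD+1B minus chow, and HFD+1B minus HFD. In chow livers its log2 ratio was 0.78, -0.63, 1.66, and 1.08, with 1 mouse far below the other 3. In 1B livers it was -0.77, -1.37, -0.71, and -1.20, and the 1B mice all lay below the lowest chow mouse, though only by a small step. In HFD livers it was 0.77, 0.78, -0.28, and 0.36, inside the chow range. In HFD+1B livers it was -1.71, -1.08, -1.36, -1.40, and -1.45, below every maltose-treated mouse.

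The mean fell from 0.72 ± 0.97 in chow to -1.01 ± 0.32 in 1B (SD, n = 4 each), a difference of -1.73 ± 0.35 (SE), 3.33-fold lower, with an adjusted p of 0.0073 in limma. HFD+1B (-1.40 ± 0.23, n = 5) was 3.49-fold lower than HFD (0.41 ± 0.50, n = 4), a difference of -1.80 ± 0.33 with an adjusted p of 0.0013, and 4.35-fold lower than chow (-2.12 ± 0.33, adjusted p = 0.00023). Within slides that held both groups, 1B was below chow on 3 of 3 (-2.37 to -0.74) and HFD+1B below HFD on 4 of 4 (-2.48 to -1.07). HFD alone differed from chow by -0.32, with a 95% interval of -1.04 to 0.41, and by -0.77 without chow mouse 2 (adjusted p = 0.071) or -0.0044 without chow mouse 3. The ethanol differences on the 2 diets differed by -0.07, with an interval of -1.07 to 0.93. All 3 Dbp calls held without any single mouse. Over those fits the 1B difference ran from -2.18 (without chow mouse 2) to -1.42. Adjusted for the ribosomal RNA signal, HFD+1B minus HFD was -2.54 and no longer called (adjusted p = 0.48). Because this signal in the HFD group did not overlap the other groups, such a fit cannot tell it apart from HFD. The same holds for every adjusted comparison below that involves the HFD group, so a call lost there decides nothing about the difference. Of the 8 hepatocyte markers, 1 was called higher and none lower in 1B minus chow, and 3 higher and 1 lower in HFD+1B minus HFD. Their part in the Dbp differences was not tested.

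Tef, a factor of the same D-box family, moved with Dbp on its brightest probe but by less. The chow mice were at 0.62, 0.07, 0.77, and 0.59, and the 1B mice at -0.39, -0.12, -0.22, and 0.03, so the groups did not overlap. The HFD mice were at 0.25, 0.51, 0.50, and 0.37, and the HFD+1B mice at -0.67, -0.30, -0.25, -0.71, and -0.11, again without overlap. Tef was 1.61-fold lower in 1B than in chow (-0.69 ± 0.15, adjusted p = 0.016) and 1.76-fold lower with HFD+1B than with HFD (-0.81 ± 0.15, adjusted p = 0.0012). It was 1.89-fold lower in HFD+1B than in chow (-0.92 ± 0.15, adjusted p = 0.00029). The interaction was -0.13, with an interval of -0.58 to 0.32. The call in 1B minus chow was lost without chow mouse 3 (-0.60, adjusted p = 0.069), chow mouse 4 (-0.66, 0.057), or 1B mouse 1 (-0.61, 0.067).

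The other Tef probes did not give the same picture. The array holds 4, and probes 2 and 3 (numbered from the brightest) gave HFD minus chow differences of -1.10 ± 0.24 (adjusted p = 0.0075) and -0.94 ± 0.19 (adjusted p = 0.0045), where the brightest differed by only -0.11 (interval -0.43 to 0.22). On probe 2 the HFD mice were at -0.45, -0.27, -1.68, and -1.16, and on probe 3 at -0.07, -0.12, -1.12, and -0.51. On both, mice 3 and 4 were the low ones. In HFD+1B minus HFD these probes differed by 0.32 and 0.08, against -0.81 on the brightest, and in 1B minus chow by -0.55 (adjusted p = 0.29) and -0.45 (adjusted p = 0.26). All 3 probes were called lower in HFD+1B minus chow (-0.92, -0.78, and -0.85), probe 2 not without chow mouse 1 (-0.71, adjusted p = 0.075), chow mouse 3 (-0.70, 0.083), chow mouse 4 (-0.77, 0.062), HFD+1B mouse 3 (-0.74, 0.053), or HFD+1B mouse 5 (-0.70, 0.059). The fourth probe carries another transcript accession, was well above background on 15 of 17 arrays, and was called in no comparison. With the mean of all 4 probes, Tef was lower in HFD minus chow (-0.58, adjusted p = 0.011) and the call in HFD+1B minus HFD was lost (-0.15, adjusted p = 0.44). In 1B minus chow this mean differed by -0.43, against -0.69 on the brightest probe. Whether Tef was called by diet or by ethanol, on either diet, therefore depended on the probe. Adjusted for the ribosomal RNA signal the HFD differences of probes 2 and 3 were 0.37 and 0.17, and HFD+1B minus HFD on the brightest probe was -0.55, none of them called.

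**Figure D2:**
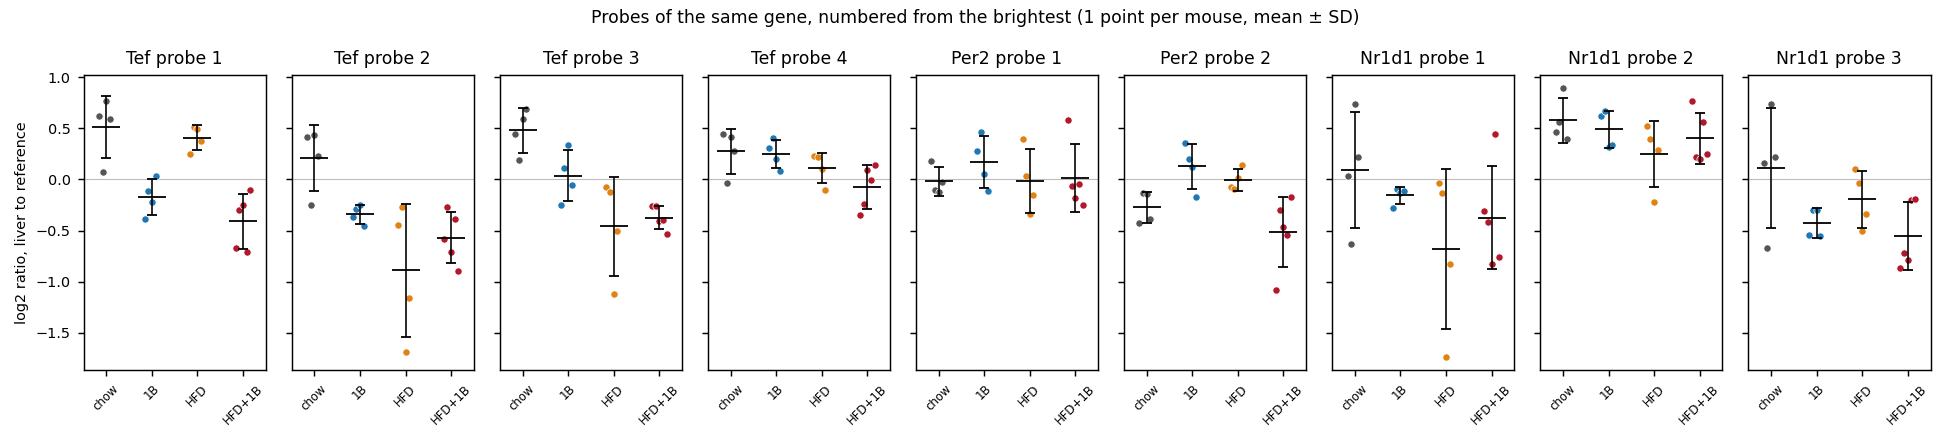
Log2 ratio of liver to reference (vertical axis) by group for each probe of Tef, Per2, and Nr1d1, numbered from the brightest, with 1 point per mouse and the mean ± SD. Tef probe 1 is low in both ethanol groups. Probes 2 and 3 are low in HFD and HFD+1B, and their difference between 1B and chow was not called. In HFD, 2 of the 4 mice lie far below the others on these probes.

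The sequences upstream of the member genes were searched for the elements of the loop. These were the E-box CACGTG, the D-box TTATGTAA or TTACGTAA, and the REV-ERB and ROR element TAGGTCA or TGGGTCA. Both strands were searched in the 250 bases before each start (RefSeq, GRCm38.p6). Starts were listed for 9 of the 10 genes, for some of them several. A gene was counted if any of its starts had a match, while the percentages are shares of single promoters. Counts and percentages are therefore not directly comparable. The E-box stood upstream of 3 of the 9 (Cry1, Per1, and Tef) and of 6.02% of all 32851 promoters, and the D-box upstream of 1 (Per3) and of 0.93% of promoters. The REV-ERB and ROR element stood upstream of none of the 9 and of 5.38% of promoters. No 2 matches overlapped, and Dbp was among the genes without a match. The windows of Tef, at both starts, and of Per3 are shown because these genes hold matches and were called lower in HFD+1B minus chow. Capitals mark the E-box in Tef, 127 and 138 bases before the start, and the D-boxes in Per3, 205 and 158 bases before it.
Tef, chr15:81802423-81802672, plus strand: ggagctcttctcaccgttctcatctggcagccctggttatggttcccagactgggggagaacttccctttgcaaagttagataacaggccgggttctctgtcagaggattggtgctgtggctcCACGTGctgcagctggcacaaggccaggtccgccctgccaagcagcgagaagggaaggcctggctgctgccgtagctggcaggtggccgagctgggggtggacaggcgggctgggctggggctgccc
Tef, chr15:81811164-81811413, plus strand: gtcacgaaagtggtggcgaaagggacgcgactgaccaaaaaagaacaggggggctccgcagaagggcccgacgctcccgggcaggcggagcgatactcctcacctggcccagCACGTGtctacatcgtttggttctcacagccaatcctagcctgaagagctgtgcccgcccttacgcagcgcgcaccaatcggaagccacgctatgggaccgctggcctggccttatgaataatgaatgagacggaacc
Per3, chr4:151044666-151044915, minus strand: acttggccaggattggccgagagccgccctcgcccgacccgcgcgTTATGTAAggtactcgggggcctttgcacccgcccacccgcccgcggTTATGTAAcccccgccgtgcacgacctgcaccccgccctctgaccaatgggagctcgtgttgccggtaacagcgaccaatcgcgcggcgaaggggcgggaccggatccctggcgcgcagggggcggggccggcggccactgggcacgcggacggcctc
A match in these letters is a description, not a bound site, and no match says only that the letters are not in this window.

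Nr1d2, the gene of REV-ERBβ, was also called in 1B minus chow. Its log2 ratio was 0.37, -0.26, 0.20, and 0.26 in chow and -0.49, -0.35, -0.15, and -0.61 in 1B, with chow mouse 2 inside the 1B range. The difference was -0.54 ± 0.14, 1.46-fold lower (adjusted p = 0.036), and it was negative on 3 of 3 shared slides. With replicate numbers as a block the call was lost (adjusted p = 0.050), and 8 of 15 other settings kept it. HFD livers were at 0.35, 0.07, -0.19, and 0.06, and HFD+1B livers at -0.33, -0.19, -0.21, -0.13, and -0.39. HFD+1B minus HFD was -0.32 (interval -0.60 to -0.04, adjusted p = 0.10) and HFD+1B minus chow -0.39 (interval -0.67 to -0.11, adjusted p = 0.055), negative on 4 of 4 slides in each case but not called. The latter was called without chow mouse 2 (-0.53, adjusted p = 0.0084), HFD mouse 1 (-0.39, 0.044), or HFD mouse 3 (-0.39, 0.043). The call in 1B minus chow was lost without chow mouse 1 (-0.46, adjusted p = 0.12), chow mouse 3 (-0.52, 0.11), chow mouse 4 (-0.50, 0.12), 1B mouse 1 (-0.51, 0.11), 1B mouse 2 (-0.56, 0.069), or 1B mouse 4 (-0.47, 0.11).

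Nr1d1, the gene of REV-ERBα, varied widely among mice of a group, with an SD of up to 0.79. On its brightest probe the chow mice were at 0.03, -0.63, 0.74, and 0.22 and the HFD mice at -0.03, -0.13, -1.73, and -0.82. The 1B mice were close together, at -0.28, -0.09, -0.13, and -0.12, and the HFD+1B mice at -0.30, -0.42, -0.83, 0.44, and -0.76. HFD minus chow was -0.77, with an interval of -1.48 to -0.06 (adjusted p = 0.16), and it was -1.01 without chow mouse 2 and -0.42 without HFD mouse 3. No comparison of this probe was called. On the dimmest of its 3 probes HFD minus chow was -0.31 (adjusted p = 0.44) and HFD+1B minus chow -0.67 ± 0.22, called at an adjusted p of 0.049. That call was lost in 12 of the 17 fits that left out 1 mouse, with differences of -0.93 to -0.46, and the groups overlapped.

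Arntl, the gene of the activator BMAL1, was higher on the high-fat diet. Its log2 ratio was -0.54, -0.27, -0.79, and -0.73 in chow and 0.29, -0.26, 0.09, and 0.03 in HFD, so the groups did not overlap, by a step between chow mouse 2 and HFD mouse 2. The difference was 0.62 ± 0.15, 1.54-fold higher, with an adjusted p of 0.014. HFD+1B livers were at 0.19, -0.46, 0.19, -0.09, and -0.21, a difference of 0.51 ± 0.14 from chow (adjusted p = 0.020) in which HFD+1B mouse 2 fell inside the chow range. In 1B livers Arntl stayed close together at -0.35, -0.44, -0.53, and -0.50, a difference of 0.13 from chow with an interval of -0.19 to 0.44. HFD+1B minus HFD was -0.11 (interval -0.41 to 0.18), and HFD+1B minus 1B was 0.38 (interval 0.08 to 0.68, adjusted p = 0.10), which was called without HFD+1B mouse 2 (0.48, adjusted p = 0.032). Within slides HFD was above chow on 3 of 3, by 0.01 to 0.83, and HFD+1B above chow on 4 of 4, by 0.06 to 0.92.

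The HFD call of Arntl was lost without chow mouse 4 (0.57, adjusted p = 0.050) and after adjusting for the ribosomal RNA signal (0.45, adjusted p = 0.94). Only 10 of 15 other settings kept this call, though the difference stayed positive in all of them (0.43 to 0.72). Cy5 alone and median-centred arrays were among the settings that lost it, so the call depended on the normalization. The HFD+1B call was lost without chow mouse 3 (0.44, adjusted p = 0.078), chow mouse 4 (0.46, 0.072), or HFD+1B mouse 3 (0.44, 0.053). The ribosomal RNA probes moved with HFD but not with HFD+1B, and their part in the HFD differences was not tested. Stellate cell markers were also called higher: 3 of 7 in HFD minus chow (median 0.56) and 5 of 7 in HFD+1B minus chow (median 0.61). Arntl differed by -0.11 in HFD+1B minus HFD, where 2 of these 7 markers were called higher (median 0.12). The mean log2 ratio of the 7 was -0.58 to -0.25 in chow mice and -0.29 to -0.26 in 1B mice. On the high-fat diet it was -0.01 to 0.18 without and -0.26 to 0.63 with ethanol. Of 7 Kupffer cell and macrophage markers 2 and 1 were called higher (medians 0.25 and 0.22), with mean log2 ratios of -0.40 to 0.09 in chow mice and -0.31 to -0.10 in 1B mice, and on the high-fat diet 0.13 to 0.37 without and 0.10 to 0.52 with ethanol. Other cell lists also moved. Of 6 sinusoidal endothelial markers 2 were called higher and none lower in HFD minus chow (median 0.25). In HFD+1B minus chow 2 were higher and 2 lower (median 0.17). Of 4 cholangiocyte markers 1 was called lower in HFD minus chow (median -0.38) and none in HFD+1B minus chow (median 0.19). Of 8 hepatocyte markers 1 was called lower and none higher in HFD minus chow (median -0.21). In HFD+1B minus chow 2 hepatocyte markers were higher and none lower (median -0.04). Among all genes, 4.50% were called higher and 6.48% lower in HFD minus chow, and 8.89% and 7.41% in HFD+1B minus chow. All tested markers of these lists were well above background on all arrays. The part of these cells in the Arntl and Per3 differences was not tested. The Arntl probe (60 bases, as deposited) is shown as the stretch of transcript these values rest on: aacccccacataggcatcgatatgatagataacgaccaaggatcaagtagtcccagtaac.

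Clock, the partner of BMAL1, was called in no comparison on any of its 4 probes. On the brightest it was at -0.15, 0.15, -0.50, and -0.43 in chow and at 0.34, 0.13, 0.24, and 0.14 in 1B, a difference of 0.44 with an interval of 0.16 to 0.73 and an adjusted p of 0.091. It was called without chow mouse 2 (0.57, adjusted p = 0.021), the mouse with the highest Clock and lowest Dbp of its group. HFD livers ranged from -0.21 to 0.26 and HFD+1B livers from -0.20 to 0.20. The interaction was -0.47 (interval -0.86 to -0.07, adjusted p = 0.17).

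Among the repressors, Per3 was lower on the high-fat diet with and without ethanol. Chow mice were at 0.23, 0.06, 0.55, and 0.26, HFD mice at -0.26, -0.32, -0.59, and -0.36, and HFD+1B mice at -0.39, 0.02, -0.34, -0.37, and -0.66. Neither HFD group overlapped with chow. HFD was 1.57-fold lower than chow (-0.66 ± 0.15, adjusted p = 0.010) and HFD+1B 1.54-fold lower (-0.62 ± 0.14, adjusted p = 0.0056). Both differences were negative within every slide that held the groups (3 and 4 slides), and both calls held without any single mouse. The 1B mice spread from -0.36 to 0.31 (difference -0.30, interval -0.61 to 0.01), and HFD+1B minus 1B was -0.32 (interval -0.62 to -0.02, adjusted p = 0.19).

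The Per3 probe was dim. It was well above background on 14 of 17 arrays, on 2 of 4 in HFD and 4 of 5 in HFD+1B, and the offset of 50 compresses the ratio of a dim probe. With plain background subtraction the HFD difference was -1.33 and the HFD+1B difference -1.12. In the log2 table deposited by the authors the same HFD difference was -2.58 and the HFD+1B difference -1.73, both called. Adjusted for the ribosomal RNA signal HFD minus chow was 0.09 and not called.

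Per1, a repressor that is also known to be induced quickly by glucocorticoids and cAMP, was at -0.52, -0.67, 0.12, and 0.01 in chow and at -1.12, -0.87, -0.50, and 0.00 in 1B. HFD mice were at -0.51, -0.04, -0.84, and -0.38, and HFD+1B mice at -0.10, -0.16, 0.14, 0.23, and 0.21, the narrowest and highest group, which still overlapped with each of the others. HFD+1B was 1.61-fold higher than 1B (0.69 ± 0.21, adjusted p = 0.048) and higher on 4 of 4 slides. HFD+1B minus HFD was 0.51 (interval 0.06 to 0.95, adjusted p = 0.11) and the interaction 0.86 (interval 0.21 to 1.51, adjusted p = 0.12), called without 1B mouse 4 (1.07, adjusted p = 0.047) and when arrays were median-centred instead of loess-normalized (adjusted p = 0.028). The call against 1B was lost in 10 of the 17 fits that left out 1 mouse, with values of 0.52 (without 1B mouse 1, adjusted p = 0.18) to 0.89 over the 17.

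Per2 was read by 2 probes that differed. The brightest was at 0.18, -0.11, -0.12, and -0.02 in chow, and averaged 0.17 in 1B mice, -0.02 in HFD mice, and 0.01 in HFD+1B mice, and no difference was called. The other probe was at -0.43, -0.13, -0.15, and -0.39 in chow and 0.36, 0.20, 0.12, and -0.17 in 1B. HFD mice were at -0.07, -0.10, 0.02, and 0.14 and HFD+1B mice at -1.08, -0.30, -0.47, -0.54, and -0.17. HFD+1B was below HFD (-0.51 ± 0.15, adjusted p = 0.025) and below 1B (-0.64 ± 0.15, adjusted p = 0.010), and all HFD+1B mice lay below all HFD mice. Its interaction was -0.91 ± 0.22 (adjusted p = 0.027), and that of the brightest probe was -0.16, with an interval of -0.68 to 0.36.

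The interaction call of Per2 probe 2 was lost without chow mouse 1 (-0.86, adjusted p = 0.059), chow mouse 4 (-0.87, 0.061), 1B mouse 1 (-0.83, 0.060), 1B mouse 2 (-0.89, 0.050), or HFD mouse 4 (-0.86, 0.061). The call against HFD was lost without HFD mouse 3 (-0.50, adjusted p = 0.056), HFD mouse 4 (-0.46, 0.079), or HFD+1B mouse 4 (-0.50, 0.051). Adjusted for the ribosomal RNA signal the difference from HFD was 0.10 and the interaction -0.14, neither called. The sequence of the brightest Per2 probe is given so that the reading can be placed: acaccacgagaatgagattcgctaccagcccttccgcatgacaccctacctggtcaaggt.

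Cry1, the second kind of repressor, was called in no comparison on either probe. On the brighter probe chow averaged -0.35 ± 0.40, 1B -0.12 ± 0.25, HFD -0.18 ± 0.08, and HFD+1B -0.28 ± 0.14 (SD), and the interval of 1B minus chow ran from -0.11 to 0.57.

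**Figure D3:**
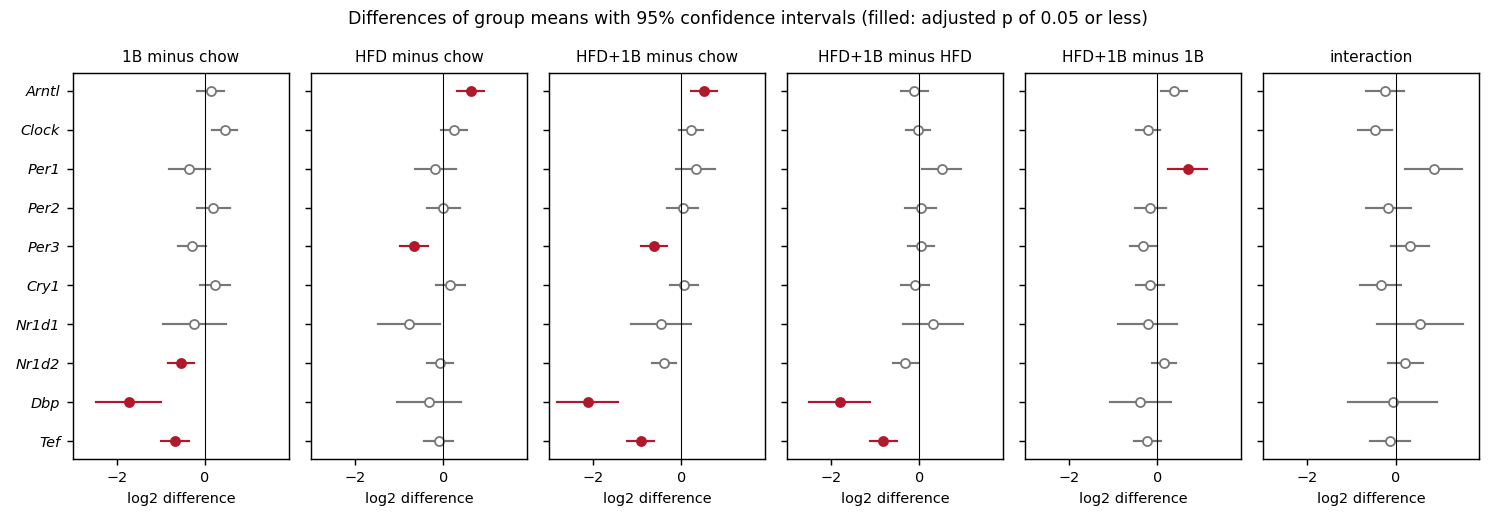
Log2 difference of group means (horizontal axis) for the 10 genes in the 6 comparisons, with 95% confidence intervals as bars. Filled points were called. The intervals of Dbp lie wholly below 0 in 1B minus chow, HFD+1B minus chow, and HFD+1B minus HFD and include 0 in the other comparisons.

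Other genes of the clock loop were counted in a list of 18, all tested. In 1B minus chow 2 were lower and none higher (all genes 2.04% and 2.09%), and in HFD minus chow 4 lower and 1 higher (6.48% and 4.50%). HFD+1B minus chow had 4 lower and 2 higher (7.41% and 8.89%), HFD+1B minus HFD 2 lower and 4 higher (8.39% and 11.0%), HFD+1B minus 1B 1 lower and 3 higher (5.16% and 6.28%), and the interaction 1 lower and 1 higher (4.39% in all). The list median lay between -0.07 and 0.07 in the first 4 of these comparisons, where the median of all genes lay between 0.00 and 0.01. Nfil3, whose product E4BP4 competes with DBP and TEF at D-boxes, was highest in HFD+1B, but its interaction was not called. Chow averaged -1.16 ± 0.17, 1B -0.81 ± 0.38, HFD -1.08 ± 0.50, and HFD+1B 0.21 ± 0.16 (SD). HFD+1B exceeded HFD by 1.29 ± 0.20 (adjusted p = 0.00034), 1B by 1.03 ± 0.20 (adjusted p = 0.0026), and chow by 1.37 ± 0.20 (adjusted p = 0.00011), and no mouse of another group reached its lowest mouse. Its HFD+1B minus HFD difference adjusted for the ribosomal RNA signal was 1.93 and not called (adjusted p = 0.27).

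Usp2, a clock-controlled deubiquitinase, was lower than chow in 1B (-0.75 ± 0.14, adjusted p = 0.0050), in HFD+1B (-0.84 ± 0.14, adjusted p = 0.00057, 1 HFD+1B mouse without a value), and in HFD (-0.46 ± 0.14, adjusted p = 0.047), the last lost in 10 of 17 fits that left out 1 mouse (-0.58 to -0.34). Rora, an activator of Arntl, was lower in HFD than in chow (-0.60 ± 0.11, adjusted p = 0.0024) and called higher in HFD+1B minus HFD (0.70 ± 0.10, adjusted p = 0.00028), with an interaction of 1.04 ± 0.15 (adjusted p = 0.0024). Bhlhe41, the gene of the E-box repressor DEC2, was lower in HFD than in chow (-1.02 ± 0.18, adjusted p = 0.0018) and called higher in HFD+1B minus HFD (0.77 ± 0.17, adjusted p = 0.0043). Csnk1e, a kinase of PER proteins, was higher in HFD+1B than in chow (0.72 ± 0.11, adjusted p = 0.00021). Adjusted for the ribosomal RNA signal none of these genes was called in HFD minus chow or HFD+1B minus HFD, and the differences of Bhlhe41 were 0.13 and -0.29.

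Among 14 liver genes known as clock-controlled outputs, all tested, 5 were lower and none higher in 1B minus chow (all genes 2.04% and 2.09%), with a list median of -0.26 beside 0.01 for all genes. In HFD minus chow 3 were lower and 1 higher (6.48% and 4.50%, median -0.44), and in HFD+1B minus chow 6 lower and 2 higher (7.41% and 8.89%, median -0.95). HFD+1B minus HFD had 4 lower and 2 higher (8.39% and 11.0%, median -0.48), HFD+1B minus 1B 2 lower and 1 higher (5.16% and 6.28%), and the interaction 1 of each (4.39% in all). The 2 genes with the largest fall in 1B were Cyp2a5 (-2.20 ± 0.32, adjusted p = 0.00069), a cytochrome P450, and Upp2 (-2.06 ± 0.49, adjusted p = 0.022), a uridine phosphorylase. Both were also called lower in HFD minus chow (-2.02 ± 0.32, adjusted p = 0.0012, and -2.04 ± 0.49, adjusted p = 0.014), but adjusted for the ribosomal RNA signal these were -0.83 and -0.28 and not called. The Cyp2a5 probe may also read its close paralog Cyp2a4. The call of Upp2 in 1B was lost without chow mouse 1 (-1.88, adjusted p = 0.073), chow mouse 3 (-2.07, 0.060), chow mouse 4 (-2.14, 0.051), 1B mouse 1 (-1.87, 0.087), or 1B mouse 3 (-2.01, 0.056).

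Alas1, the first enzyme of heme synthesis, averaged 0.83 ± 0.21 in chow livers and -1.06 ± 0.43 in 1B livers, and on the high-fat diet 0.39 ± 0.45 without and -0.45 ± 0.42 with ethanol (SD). It fell by 1.89 ± 0.25 (SE) in 1B minus chow (adjusted p = 0.00020) and by 1.28 ± 0.23 in HFD+1B minus chow (adjusted p = 0.00095). Nr1i3, the gene of the xenobiotic receptor CAR, fell by 0.86 ± 0.17 in 1B (adjusted p = 0.0073) and by 1.37 ± 0.16 in HFD+1B minus HFD (adjusted p = 5.2e-05). Ppara, the fatty acid receptor, fell by 1.06 ± 0.27 in 1B (adjusted p = 0.032) and by 1.39 ± 0.25 in HFD+1B minus HFD (adjusted p = 0.0014), the former not without chow mouse 3 (-0.85, adjusted p = 0.13), chow mouse 4 (-0.98, 0.11), 1B mouse 1 (-0.99, 0.11), 1B mouse 2 (-0.99, 0.097), or 1B mouse 4 (-1.08, 0.063).

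Cyp7a1, the rate-limiting enzyme of bile acid synthesis, was lowest with both treatments: chow averaged 0.52 ± 0.55 (n = 3, 1 spot left out), 1B 0.67 ± 0.36, HFD 0.03 ± 0.41, and HFD+1B -1.59 ± 0.29 (SD). It fell by 1.62 ± 0.23 (SE) in HFD+1B minus HFD (adjusted p = 0.00026), with an interaction of -1.77 ± 0.35 (adjusted p = 0.013). Of the genes that rose, Insig2, a brake on sterol synthesis, was higher in HFD (1.36 ± 0.28, adjusted p = 0.016) and HFD+1B (2.22 ± 0.31, adjusted p = 0.00097) than in chow, on few values, since spots marked as outliers left 2 chow, 3 HFD, and 2 HFD+1B mice. Its HFD call was lost without chow mouse 3 (1.15, adjusted p = 0.097). Lpin1, a phosphatidate phosphatase and coactivator, was called higher in HFD+1B minus HFD (2.19 ± 0.34, adjusted p = 0.00047, 1 HFD+1B mouse without a value). After adjusting for the ribosomal RNA signal no HFD+1B minus HFD difference of Nr1i3 (-1.47), Ppara (-1.03), Cyp7a1 (-1.76), or Lpin1 (1.60) was called, nor was the interaction of Cyp7a1 (-1.95).

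**Figure D4:**
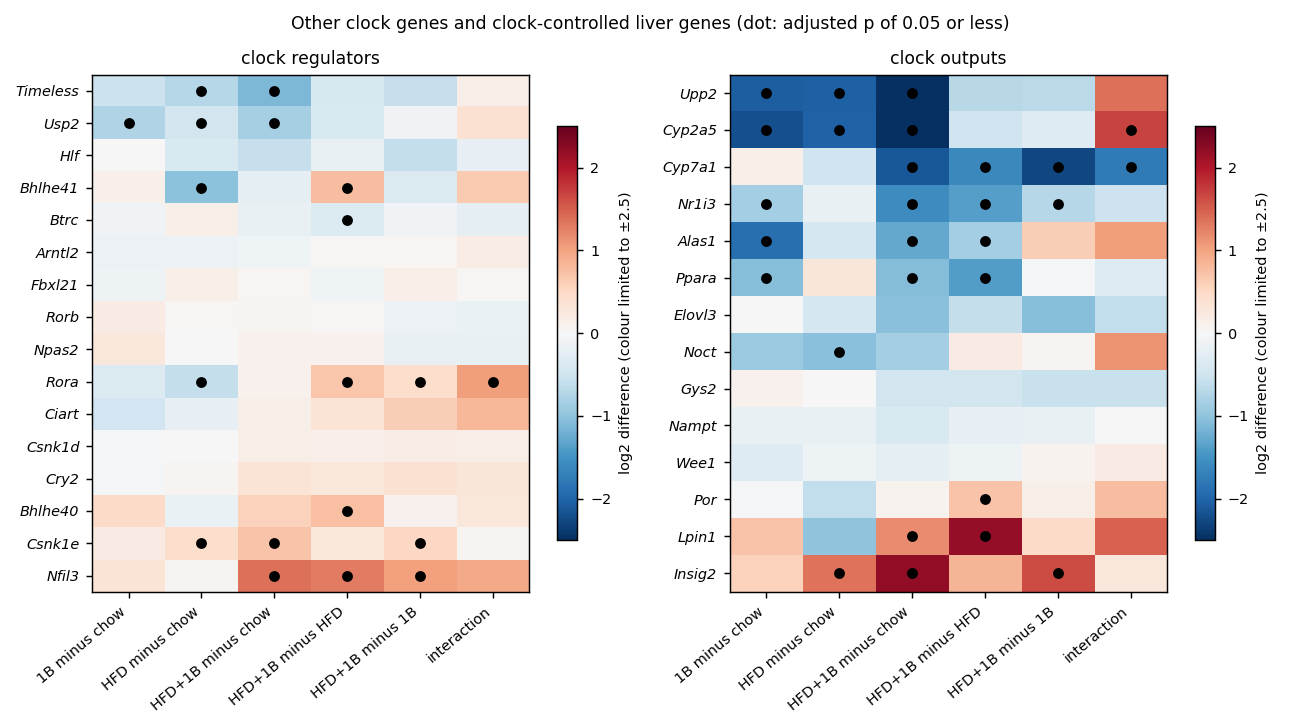
Log2 difference of group means (color) of 16 other genes of the clock loop and 14 clock-controlled liver genes in the 6 comparisons (columns), ordered by HFD+1B minus chow, with a dot where the gene was called. Most outputs with a dot in HFD+1B minus chow are blue (6 of 8), and Nfil3 is red in all 3 comparisons of HFD+1B with another group.

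Mice of 1 group also differed among themselves, and 4 pairs of genes were examined for whether they deviated from their group means together, over 17 mice. Nr1d1 and Dbp deviated together (Pearson r = 0.68, permutation p = 0.0092, adjusted p = 0.037 over the 4 pairs; Spearman rho = 0.56, permutation p = 0.050, adjusted p = 0.099). Without the 2 mice with the most extreme Nr1d1, HFD mouse 3 and chow mouse 3, r was 0.46 (permutation p = 0.13), so the relation rests on those mice. Without 1 mouse its adjusted p exceeded 0.05 in 7 of 17 cases (HFD mice 2, 3, and 4 and each chow mouse), reaching 0.15. Arntl with Dbp did not pass (r = -0.56, permutation p = 0.033, adjusted p = 0.065; rho = -0.56, permutation p = 0.034, adjusted p = 0.099; r = -0.65 without HFD mouse 1 and chow mouse 3, permutation p = 0.0075), and it stayed above the threshold in 15 of 17 cases without 1 mouse. Arntl with Nr1d1 (r = -0.31, permutation p = 0.32; rho = -0.36, permutation p = 0.24; r = -0.45 without the 2 mice) and Per1 with Per2 (r = -0.32, permutation p = 0.22; rho = -0.27, permutation p = 0.33; r = -0.14 without the 2 mice) did not pass either. Each slide held 3 or 4 arrays, too few for a correlation within a slide. Over 32818 probes, 16 of 21 pairs of mice on the same slide deviated together at r over 0.1 (median 0.20). The permutations did not take slides into account, and the part of slides in these correlations was not tested.

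**Figure D5:**
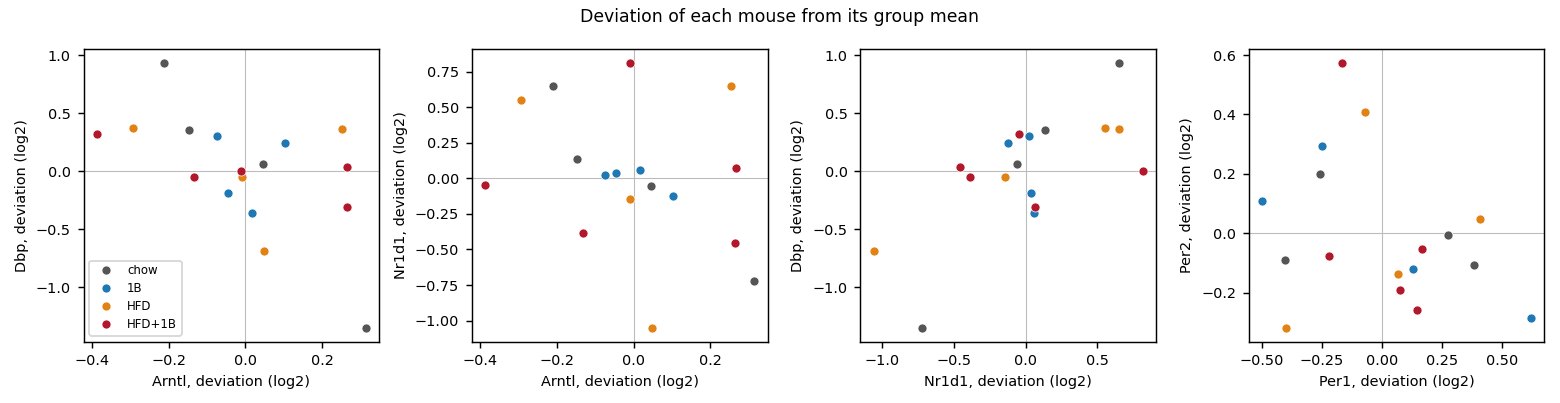
Deviation of each of the 17 mice from the mean of its group, in log2 units, for the 4 pairs of genes examined, colored by group. Nr1d1 and Dbp lie along a rising line (r = 0.68) that 2 mice extend at its ends, and the falling trend of Arntl and Dbp (r = -0.56) did not pass after adjustment.

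Over all 17 arrays, the genes outside the set whose log2 ratios were most like Dbp, among 15357 genes well above background on all arrays, were Dclre1a (r = 0.94), Sord (0.94), Mettl7b (0.93), Dsg1c (0.90), and Ces1d (0.90). They are given as a description, since the 17 points share groups, slides, and the reference. They were chosen over group differences too, so a fall in the same comparisons as Dbp was fixed by the choice: all 5 were lower in 1B than in chow, with differences of -0.39 (Mettl7b) to -1.42 (Ces1d), and in HFD+1B than in HFD, of -0.44 (Mettl7b) to -0.94 (Ces1d). None of the 5 was called in HFD minus chow. For Arntl the most alike were Olfr800 (r = 0.89), Rasal1 (0.87), Doc2g (0.87), Dnaaf1 (0.87), and Ano10 (0.86), none of which was called in HFD minus chow (0.44 to 0.81, lowest adjusted p = 0.082).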

How the data were processed

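Liver RNA of 17 mice was measured on 2-color arrays without a dye swap. The authors scanned the arrays with Feature Extraction 11.5.1.1 and deposited, per array, raw median spot and background signals as intensity, processed signals as intensity after background subtraction and dye normalization, and a table of the log2 ratio of processed Cy5 to Cy3, used here as an alternative. From the raw signals of 43379 non-control spots, ratios were computed with limma 3.58.1 in R 4.3.3 (normexp with an offset of 50, loess within arrays, spots marked as outliers left out, spots of a probe averaged), which left 3424 missing values in the tested probes. Probes were tested when well above background in Cy5 on at least 4 arrays with a value in every group. Groups were fitted together with lmFit and eBayes and compared in 6 comparisons. Correlations used 100000 permutations within groups (two-sided, Python 3.11.15). The array was annotated on an older genome build than the promoter sequences, and no probe coordinates were used. The code was tested on simulated data.

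The members and lists were chosen with earlier results of these data known. All 10 members are described. Of the other clock lists, called genes could be named (examples are given), of the remaining lists the counts and up to 3 called genes with large changes, and for likeness the 5 genes with the highest r. Alternatives were other background corrections and normalizations, filters, blocks, the methods' test, and leaving out each mouse. Labels do not say that replicates share anything but a number. The arrays lay on 5 slides, each with several groups, scanned on 1 day. Some genes of the clock list are counted but not reported here by name.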

Additional observations from a re-analysis of the deposited data

Results flagged for a closer look

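On the brightest Per2 probe, HFD+1B mouse 1 stood apart from its group at 0.59, against -0.04 in the next mouse and -0.25 in the lowest. Its gap was 0.752 of the group's range. It was the only such case among 80 sets of 1 probe and 1 group, where about 4 would arise by chance. On the second Per2 probe the same mouse was the lowest of its group, at -1.08 against -0.54 in the next mouse. The ethanol difference of the second Per2 probe differed between the diets by -0.91, as described above.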

How the results depend on the processing

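Values are log2 differences, and counts are clock genes called of 10. In 1B minus chow (3) the count was 1 with Cy5 alone, 1 with a 2-fold threshold and unadjusted p, and 0 with the methods' Tukey test after Benjamini-Hochberg. In HFD minus chow (2) it was 1 with median centring, Cy5 alone, or probes well above background on all 17 arrays, and 0 with the ribosomal RNA covariate, the 2-fold threshold, or the adjusted Tukey test. In HFD+1B minus chow (4) it was 1 with the 2-fold threshold and 2 with the adjusted Tukey test. In HFD+1B minus HFD (2) it was 1 with Cy5 alone, the mean of probes, or the 2-fold threshold, and 0 with the covariate. In HFD+1B minus 1B (1) it was 0 with plain subtraction, Cy5 alone, the authors' table, no filter, the 2-fold threshold, and both Tukey settings, and 2 with the mean of probes. The interaction (0) had 1 with median centring or the mean of probes, and the Tukey test gives none. Leaving out 1 mouse gave 1 to 4, 1 to 2, 3 to 5, 2 to 2, 0 to 2, and 0 to 1 in that order.

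With the covariate these differences turned, none of them called: HFD minus chow of Per3 to 0.090, Nr1d1 to 1.32 and 0.15 (probe 3), Dbp to 0.48, Tef probes 2 and 3 to 0.37 and 0.17, Bhlhe41 to 0.13, and Insig2 to -0.13, HFD+1B minus HFD of Arntl to 0.043, Per1 to -0.20, Per2 probe 2 to 0.10, Tef probes 2 and 3 to -1.04 and -0.94, and Bhlhe41 to -0.29, and the interaction of Clock to 0.40, Per1 to -0.027, and Tef to 0.20. The covariate and HFD cannot be told apart, since ribosomal RNA in HFD does not overlap other groups. Cy5 alone turned Arntl in 1B minus chow to -0.18, Nr1d1 probe 3 in HFD minus chow to 0.0072, and the Tef interaction to 0.068. Median centring turned Arntl in HFD+1B minus HFD to 0.16 and the interactions of Dbp and Tef to 0.28 and 0.18, and the mean of probes turned the Tef interaction to 0.28. Without 1 mouse, Tef probe 3 in HFD+1B minus HFD ran from -0.14 to 0.21, and the interactions of Dbp and Tef from -0.38 to 0.38 and -0.21 to 0.018. The causes were not tested.

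The correlation of Arntl with Dbp was -0.65 without 2 mice and -0.69 to -0.37 without 1, and that of Nr1d1 with Dbp 0.46 and 0.61 to 0.77. Replicate numbers were shared by mice of different groups without a stated pairing. Of the same-number pairs, 16 of 24 deviated together at r over 0.1 (-0.13 to 0.48), against 19 of 84 pairs with other numbers. Many same-number pairs also shared a slide, and the parts of number and slide were not separated. With the replicate block the counts were 2, 2, 4, 2, 1, and 0, and calls were lost for Nr1d2 in 1B minus chow (-0.54, adjusted p = 0.050), Tef probe 2 in HFD+1B minus chow (-0.70, 0.061), and Hsph1 in HFD+1B minus chow (-1.20, 0.052). HFD+1B mouse 5 is alone in its block. Dim probes such as Per3 limit precision.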

Other observations

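Other lists that can move with the clock in liver were counted in the same fit. Of 6 glucocorticoid-responsive genes tested (7 listed), 1 was higher and none lower in 1B minus chow (all genes 2.09% and 2.04%; list median -0.14), and 1 was lower in HFD minus chow (6.48% of all genes). In HFD+1B minus chow 3 were higher and 1 lower (8.89% and 7.41%), and in HFD+1B minus HFD 3 higher and none lower (11.0% and 8.39%; list median 0.85). The members did not move one way. Fkbp5, a chaperone partner of the glucocorticoid receptor, averaged -0.88 in chow livers and 0.23 in 1B livers, and on the high-fat diet -1.16 without and 0.06 with ethanol. It rose in 1B minus chow (adjusted p = 0.00034) and by 1.22 in HFD+1B minus HFD (adjusted p = 4.9e-05) in limma. Tat, an enzyme of tyrosine breakdown, rose by 2.79 in HFD+1B minus HFD (adjusted p = 0.00015, 1 HFD mouse without a value), while its 1B minus chow difference was -0.65 (adjusted p = 0.48). Tsc22d3, the gene of GILZ, fell by 1.03 in HFD+1B minus chow (adjusted p = 0.0045), and its 1B minus chow difference was -0.81 (adjusted p = 0.077, but 0.0038 with replicate numbers as a block and 0.040 without HFD+1B mouse 5).

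Of 6 fasting and cAMP-responsive genes tested (7 listed), 1 was higher in 1B minus chow (2.09% of all genes), 2 in HFD+1B minus chow (8.89%), and 2 in HFD+1B minus HFD (11.0%), none lower, and none was called in HFD minus chow. Igfbp1, a fasting-induced binding protein of insulin-like growth factors, rose by 4.85 in HFD+1B minus HFD (adjusted p = 2.9e-05), with a value in 2 of the 4 HFD mice. Adjusted for the ribosomal RNA signal, HFD+1B minus HFD was not called for Fkbp5 (1.00), Tat (1.82), or Igfbp1 (3.59). Of 8 temperature-responsive genes, 1 was higher and 2 lower in HFD+1B minus chow (8.89% and 7.41% of all genes). Hsph1, a heat shock protein, fell by 1.24 there (adjusted p = 0.023), a call lost without chow mouse 2 (-0.90, adjusted p = 0.092) or chow mouse 4 (-1.22, 0.060). The part of these pathways in the clock genes' differences was not tested.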
